A study of Mus musculus with 8 samples.

Results

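Within the MC38 tumors, 675 cells were *Spp1*+*Cxcl9*- macrophages by the number of unique molecular identifiers (UMIs, single counted transcripts) of a few genes, and they are described here across 8 tumors. Such a cell held at least 5 UMIs of *C1qa*, *C1qb* and *C1qc* together, at least 3 UMIs of *Spp1* and none of *Cxcl9*. It also held at most 1 UMI of the cell cycle genes *Mki67* and *Top2a*, none of the T cell genes *Cd3d*, *Cd3e* and *Cd3g*, and at most 2 of the MC38 genes *Mtap* and *Rhox5*. By all criteria other than those on *Spp1* and *Cxcl9*, 2890 of 9886 cells were C1q-positive, so that *Spp1*+*Cxcl9*- macrophages made up 23.4% of C1q-positive cells and 6.83% of all cells. The remaining 2215 C1q-positive cells were the cells compared with. Since these genes chose the cells, their levels are given as a description and were not tested.

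*Spp1*, on chromosome 5 from 104435111 to 104441053 of GRCm38, encodes osteopontin, a secreted phosphoprotein that binds integrins and CD44. *Cxcl9*, on the same chromosome from 92321331 to 92328079, encodes an interferon-γ-induced chemokine that attracts T cells through CXCR3. C1q, made of 3 chains, starts the classical complement pathway and is made by tissue macrophages. In tumors, macrophages rich in *SPP1* and macrophages rich in *CXCL9* are commonly described as opposed states, of which the former lie in hypoxic and matrix-rich regions and the latter near T cells.

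MC38 is a mouse colon carcinoma line, grown in syngeneic C57BL/6 mice, and each tumor came from 1 mouse. The study compared, 24 hours after injection, saline (3 tumors), free R848 (3 tumors), an agonist of the toll-like receptors TLR7 and TLR8, and medium R848-BPDs (2 tumors), bottlebrush polymer prodrugs from which R848 is released at an intermediate rate. CD45+ and CD45- cells of each tumor, mostly CD45+, were loaded together on a Seq-Well array, in which cells and barcoded beads share small wells. The methods give 8-week-old female C57BL/6J mice for MC38 experiments in general, and the dose was not given for these samples in the sources used here. All groups carried the same tumor, and no engineered allele was named for them.

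The 8 tumors held 5867590 to 12422614 UMIs, and 1 saline tumor, replicate 2, stood apart from the other saline tumors. In it, 60.9% of C1q-positive cells had a *Cxcl9* UMI, against 3.97% and 2.70% in saline replicates 1 and 3. Barcodes that occurred in more than 1 tumor numbered 23, and 1 of the 675 *Spp1*+*Cxcl9*- macrophages carried such a barcode. Scrublet marked 67 cells (0.678%) as doublets, of which 3 were *Spp1*+*Cxcl9*- macrophages. The labels name no batch, so tumors could not be grouped by a run or a day.

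The share of *Spp1*+*Cxcl9*- macrophages ranged widely between tumors of the same treatment, and most widely after saline. After saline, they were 155 of 302 C1q-positive cells in replicate 1 (51.3%, exact 95% binomial interval 45.5% to 57.1%), 23 of 506 in replicate 2 (4.55%, 2.90% to 6.74%) and 193 of 296 in replicate 3 (65.2%, 59.5% to 70.6%). After free R848, they were 22 of 271 (8.12%, 5.16% to 12.0%), 139 of 490 (28.4%, 24.4% to 32.6%) and 53 of 259 (20.5%, 15.7% to 25.9%). After medium R848-BPDs, they were 67 of 427 (15.7%, 12.4% to 19.5%) and 23 of 339 (6.78%, 4.349% to 10.01%). Saline replicates 1 and 3 lay above all tumors given R848 in either form, and saline replicate 2 lay below all of them. These intervals cover counting error only. Together, saline replicates 1 and 3 gave 348 (51.6%) of all *Spp1*+*Cxcl9*- macrophages.

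**Figure D1:**
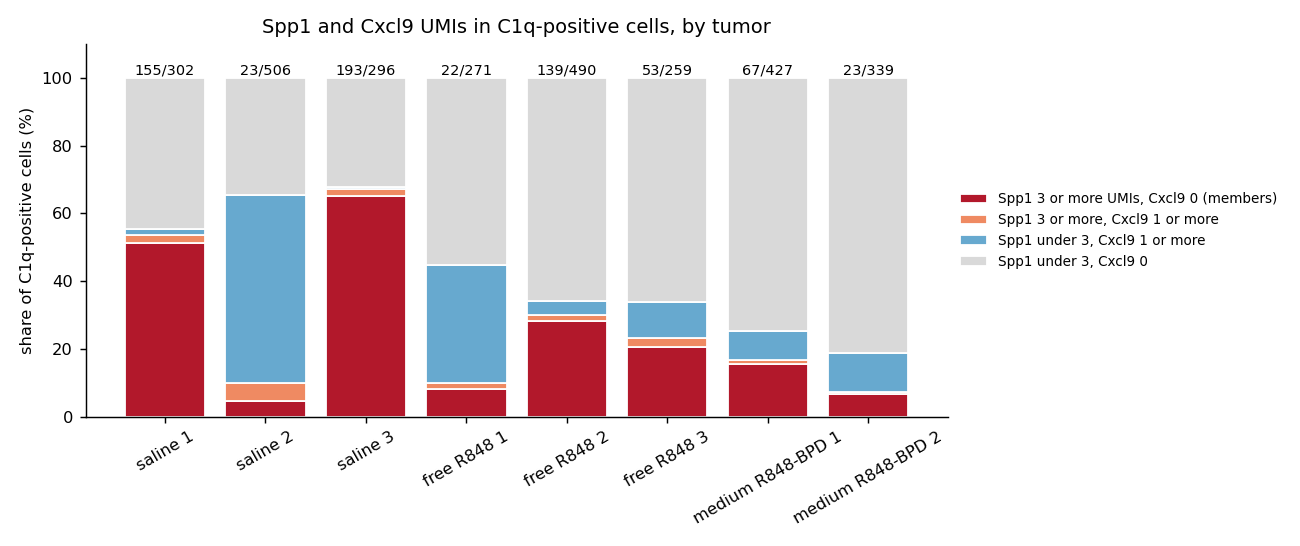
The bars split the C1q-positive cells of each tumor (x axis) by *Spp1* (at least 3 UMIs or fewer) and *Cxcl9* (any UMI or none), as a share in percent (y axis). *Spp1*+*Cxcl9*- cells took 51.3% and 65.2% in saline replicates 1 and 3 and 4.55% in saline replicate 2, where 60.9% of the cells had a *Cxcl9* UMI.

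The mean share over tumors was 40.4% ± 31.8 (SD, n = 3) in the saline group. It was 19.0% ± 10.2 (SD, n = 3) in the free R848 group. It was 11.2% ± 6.30 (SD, n = 2) in the medium R848-BPD group. No pair of treatments differed by more than the spread between tumors. The difference was -21.4 percentage points between free R848 and saline (two-sided exact permutation p = 0.4, adjusted p = 0.6 over the 3 comparisons), -29.1 between medium R848-BPDs and saline (exact permutation p = 0.6, adjusted p = 0.6) and -7.75 between medium R848-BPDs and free R848 (exact permutation p = 0.4, adjusted p = 0.6). With 3 against 3 tumors the smallest p such a test can give is 0.1, and with 2 against 3 it is 0.2. Without saline replicate 2, the first 2 differences were -39.3 (exact permutation p = 0.2) and -47.0 points (exact permutation p = 0.333), and the groups no longer overlapped. Both are the smallest p that the test can give with the tumors then left.

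In saline replicate 2, both criteria removed cells. At least 3 *Spp1* UMIs were found in 9.88% of its C1q-positive cells, against 53.6% and 67.2% in saline replicates 1 and 3, 9.96%, 30% and 23.2% in free R848 replicates 1, 2 and 3 and 7.37% to 16.9% after medium R848-BPDs. In addition, 27 of its 50 cells with 3 or more *Spp1* UMIs also had a *Cxcl9* UMI, so that 46.0% of them were *Spp1*+*Cxcl9*-, compared with 81.5% to 97.0% in the other 7 tumors. Over all tumors, 67 of 742 C1q-positive cells with 3 or more *Spp1* UMIs had a *Cxcl9* UMI. C1q-positive cells themselves made up 22.0% to 37.3% of all cells.

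The *Spp1* level of the cells ranged from 3 to 376 UMIs, with a median of 10. At least 10 UMIs were found in 341 cells and at least 30 in 123. The median per tumor was 13, 6 and 14 UMIs after saline, 7, 8 and 7 after free R848, and 8 and 8 after medium R848-BPDs. As a count relative to the summed UMIs of the cells in a tumor (CPM, scaled by the trimmed mean of M values), *Spp1* was at 4151, 1263 and 6392 CPM after saline, 1692, 2624 and 1895 after free R848, and 1638 and 1716 after medium R848-BPDs. Thus the 2 saline tumors with the largest shares also had the highest *Spp1* levels per cell. Near the cutoffs, 82 cells inside had exactly 3 *Spp1* UMIs and 124 cells just outside had 2 with no *Cxcl9*. With 3 or more *Spp1* UMIs, 21 cells were left out for a single *Cxcl9* UMI, and 12 cells inside had exactly 5 C1q UMIs, against a median of 42.

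**Figure D2:**
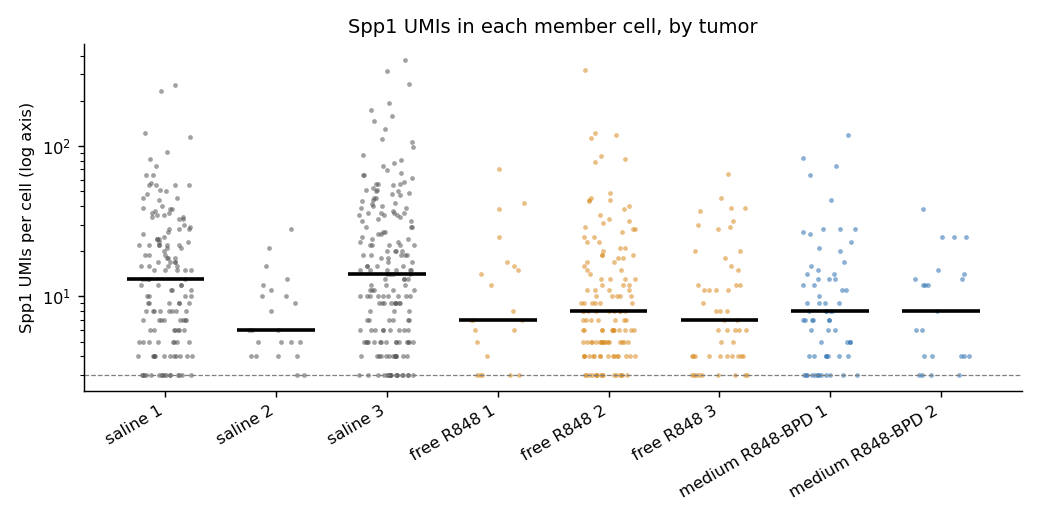
Each point is 1 *Spp1*+*Cxcl9*- macrophage, with its *Spp1* UMIs on a log axis (y) by tumor (x), and the dashed line marks the minimum of 3 UMIs. Saline replicates 1 and 3 had medians of 13 and 14 UMIs, above those of the other tumors, which were 6 to 8, and single cells reached 256 and 376 UMIs there and 319 in free R848 replicate 2.

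*Spp1* UMIs were not limited to macrophages. At least 3 UMIs were found in 66.4% to 85.1% of MC38 cells of the 8 tumors, in 35.1% to 71.1% of NK cells and in 2.70% to 20.6% of T cells, whose median depths were 9886 to 16652, 3932 to 7944 and 3060 to 6545 UMIs. Median depth was 3878 to 7634 UMIs in *Spp1*+*Cxcl9*- macrophages and 3140 to 6204 in other C1q-positive cells, and it was higher in the former in 8 of 8 tumors. C1q UMIs of at least 5, in turn, were found in 3.28% to 30.5% of T cells and 3.23% to 20.1% of MC38 cells, while NK cells were defined to have fewer than 5. The part of free RNA or of 2 cells in 1 well in these values was not tested.

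Macrophage genes that the selection did not use were found in these cells, and monocyte genes were found in part of them as well. With each cell thinned to 2000 UMIs, which left out 17 *Spp1*+*Cxcl9*- macrophages and 46 other C1q-positive cells, *Lyz2* (lysozyme) was found in a median over tumors of 95.3% of the former and 83.1% of the latter, and *Cd68* (a lysosomal glycoprotein) in 83.9% and 75.5%, both with the higher share in *Spp1*+*Cxcl9*- macrophages in 8 of 8 tumors. *Csf1r* (the receptor of the macrophage growth factor CSF1) was found in a median of 70.0% and 75.2%, with the higher share in *Spp1*+*Cxcl9*- macrophages in 4 of 8 tumors, and *Emr1* (F4/80) in 51.4% and 58.6%, with the higher share there in 3 of 8. *Ly6c2*, a marker of monocytes, was found in a median of 36.1% and 34.0%, although its share was higher in *Spp1*+*Cxcl9*- macrophages in 3 of 8 tumors only. The monocyte genes *Ccr2* (30.7% and 42.2%) and *Plac8* (41.9% and 43.7%) each had the higher share there in 2 of 8. Of other cell types, summed marker levels were 5.37 to 10.8 CPM for MC38 cells, 5.68 to 51.0 for T cells, 5.03 to 25.5 for B cells and 3.54 to 48.3 for fibroblasts. Other C1q-positive cells had 10.7 to 16.3, 2.67 to 13.8, 8.41 to 29.2 and 10.7 to 168 CPM for the same lists. Defining markers with 0 UMIs in *Spp1*+*Cxcl9*- macrophages of all tumors included *Krt18* of MC38 cells, *Trac* of T cells, *Lum* of fibroblasts, *Xcr1*, *Clec9a* and *Cd209a* of dendritic cells, *Cpa3* and *Mcpt8* of mast cells and basophils, and *Calcr* of osteoclasts, while none of the 8 NK cell markers was at 0. Summed levels were 1089 to 4646 CPM for monocyte markers (1163 to 3366 in the others), 54.0 to 369 for neutrophils (138 to 925), 48.7 to 124 for dendritic cells (99.6 to 467), 128 to 1346 for osteoclasts (198 to 1298), 25.5 to 204 for endothelium (75.3 to 173) and 0 to 3.36 for mast cells and basophils (0 to 5.33). Summed NK cell markers ranged from 8.52 to 2340 CPM, against 5.33 to 190 in other C1q-positive cells. Granzyme or *Prf1* UMIs were present in 126 (18.7%) *Spp1*+*Cxcl9*- macrophages and 365 (16.5%) other C1q-positive cells, but few cells held most of them. Of 268 *Gzma* UMIs, 79.9% were in 3 cells, and of 719 *Gzmb* UMIs, 79.6% were in 3 cells.

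To ask what else sets *Spp1*+*Cxcl9*- macrophages apart, their summed counts were compared with those of other C1q-positive cells of the same tumors with edgeR, with the tumor as a block. Of 7473 genes tested, 209 (2.8%) were higher and 216 (2.89%) were lower at an adjusted p under 0.05. Scaling by relative log expression gave 273 higher and 163 lower genes, and DESeq2 gave 199 and 105. All differences in this comparison say which genes moved with *Spp1* and *Cxcl9* within a tumor, and the 8 tumors were the replicates. A draw of the same number of cells in every tumor and kind (22) left 25 calls, all among the 425, and thinning every cell to 2000 UMIs before the selection left 280, of which 214 were shared.

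Genes of the lipid-associated program of macrophages, in which the receptor TREM2 senses lipids, were higher. Of 19 tested genes of this list, 14 were higher, 0 were lower and the median log2 fold change was 0.61, against -0.03 over all genes. *Cd9*, a tetraspanin, was at 364, 159 and 432 CPM after saline, 150.4, 224 and 148 after free R848, and 151 and 46.9 after medium R848-BPDs. Other C1q-positive cells of the same tumors had 25.2 to 165 CPM. *Cd9* was higher in 8 of 8 tumors (log2 fold change 1.58 ± 0.11 SE, edgeR adjusted p = 3.18e-10). After thinning, a *Cd9* UMI was found in a median over tumors of 27.8% of *Spp1*+*Cxcl9*- macrophages and 9.61% of the others.

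*Gpnmb*, which encodes a lysosomal glycoprotein, was at 107, 293 and 675 CPM after saline, 451, 347 and 284 after free R848, and 1272 and 838 after medium R848-BPDs, against 27.6 to 459 CPM in other C1q-positive cells (1.55 ± 0.24 SE, edgeR adjusted p = 0.000108). In saline replicate 1 the kinds of cell hardly differed, and the lowest level of *Spp1*+*Cxcl9*- macrophages lay inside the range of the others. *Trem2* itself, at 335, 421 and 489 CPM after saline, 167, 346 and 253 after free R848, and 228 and 141 after medium R848-BPDs, was higher in 7 of 8 tumors, with free R848 replicate 1 as the exception (0.61 ± 0.10 SE, edgeR adjusted p = 0.000478). Also higher were *Fabp5*, a fatty acid carrier (0.90), *Cd36*, a fatty acid receptor (0.80), *Lgals3*, galectin-3 (0.66), *Lpl*, lipoprotein lipase (0.63), and *Apoe* (0.32). *Plin2*, which coats lipid droplets, did not pass the test (0.27, edgeR adjusted p = 0.0669).

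Genes of hypoxia and glycolysis were likewise higher, 16 of 27 tested and 0 lower, with a median log2 fold change of 0.42. *Hilpda*, a hypoxia-induced inhibitor of lipolysis, was at 209, 198 and 342 CPM after saline, 247, 246 and 264 after free R848, and 678 and 892 after medium R848-BPDs. It was higher than in the other C1q-positive cells of the same tumor, which had 53.9 to 333 CPM, in 8 of 8 tumors (1.05 ± 0.12 SE, edgeR adjusted p = 2.2e-06). *Egln3*, a prolyl hydroxylase of hypoxia-inducible factors (0.84), *Ero1l*, an oxidase of the endoplasmic reticulum (0.79), *Pgam1* (0.92) and *Ldha* (0.42), of glycolysis, *Slc2a1*, the glucose transporter GLUT1 (0.54), and *Vegfa* (0.52) passed as well. *Hk2* (0.19) and *Pfkfb3* (0.17) did not. After thinning, 6 of 25 tested genes were higher.

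**Figure D3:**
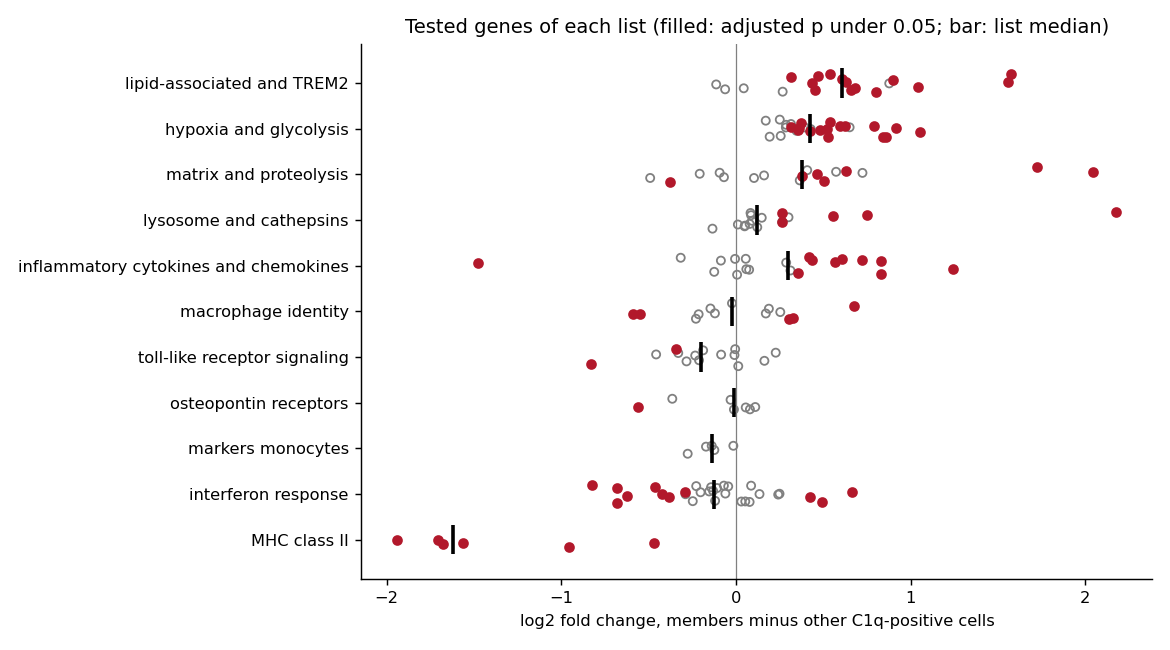
Each circle is a tested gene, placed by its log2 fold change between *Spp1*+*Cxcl9*- macrophages (members) and other C1q-positive cells (x axis), in rows by gene list (y axis), filled where the edgeR adjusted p was under 0.05. Bars mark list medians, which were 0.61 for lipid-associated genes, 0.42 for hypoxia and glycolysis and -1.62 for MHC class II.

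Of genes that act on the matrix, 6 of 17 were higher and 1 was lower (3 and 1 after thinning), and the largest differences were those of metalloproteinases. *Mmp12*, the macrophage elastase, on chromosome 9 from 7344397 to 7360461, was at 276, 70.2 and 880.1 CPM after saline, 26.9, 431 and 1000.2 after free R848, and 2297 and 422 after medium R848-BPDs. Other C1q-positive cells had 25.9 to 263 CPM, and the tumors of each treatment spread widely. Although *Mmp12* was higher in 8 of 8 tumors (log2 fold change 2.04 ± 0.33 SE, edgeR adjusted p = 0.000191), saline replicates 1 and 2 and free R848 replicate 1 were close to the other cells. In free R848 replicate 3, 3 of 53 cells held 86.1% of the 352 *Mmp12* UMIs. *Mmp13*, a collagenase, was at 77.8, 51 and 267 CPM after saline, 96.7, 123 and 690.5 after free R848, and 280.2 and 181 after medium R848-BPDs and was higher in 6 of 8 tumors (1.72 ± 0.27 SE, edgeR adjusted p = 0.000178). The level in free R848 replicate 3 rested on 3 cells, which held 94.7% of its 243 *Mmp13* UMIs, and the difference missed the threshold after thinning (0.72, edgeR adjusted p = 0.151). *Plau* (0.38) and its receptor gene *Plaur* (0.50), of the plasminogen system, *Adam8*, a membrane protease (0.63), and *Thbs1*, thrombospondin 1 (0.47), were also higher. *Fn1*, fibronectin, missed the threshold (0.57, edgeR adjusted p = 0.0552), and *Tgfbi*, a matrix protein of the transforming growth factor-β response, was lower (-0.38). Of 7 tested osteopontin receptor genes, 0 were higher and 1, the integrin gene *Itga9*, was lower, beside 2.8% and 2.89% of all genes.

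Of inflammatory cytokines and chemokines, 9 of 20 were higher and 1 was lower. *Il1a*, which encodes interleukin-1α, was at 226, 31.9 and 243 CPM after saline, 75.2, 89.4 and 96.6 after free R848, and 139 and 174 after medium R848-BPDs against 14.1 to 149 CPM in the others, and it was higher in 8 of 8 tumors (1.24 ± 0.14 SE, edgeR adjusted p = 1.36e-06). *Il1rn*, the gene of the interleukin-1 receptor antagonist, was also higher in 8 of 8 (0.83 ± 0.09 SE, edgeR adjusted p = 7.43e-07), as were the neutrophil chemokines *Cxcl2* (0.72) and *Cxcl3* (0.83), while *Il1b* (0.06) and *Tnf* (0.06) did not pass. *Ccl5*, a T cell attractant, was the member of the list that was lower, at 38.9, 19.1 and 59.2 CPM after saline, 236, 213 and 111 after free R848, and 448 and 898 after medium R848-BPDs against 93.9 to 1254 CPM in the others (-1.48 ± 0.16 SE, edgeR adjusted p = 5.8e-07).

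Of the remaining genes with the largest positive change in all 8 tumors, *Inhba*, a subunit of activin, had 1.77 ± 0.19 SE (edgeR adjusted p = 7.43e-07) and *Pdpn*, podoplanin, 1.44 ± 0.12 SE (edgeR adjusted p = 3.74e-09). They were followed by *Gadd45a* (1.19), a stress response gene, *Clec4n* (1.05), which encodes dectin-2, *Syngr1* (1.04), *Emp1* (0.89), *Il7r* (0.87), the interleukin-7 receptor, and *Iqsec1* (0.81). *Ctsk*, the cathepsin of osteoclasts, had a larger fold change (2.50) but was higher in 5 of 8 tumors only. Of its 1044 UMIs, 513 (49.1%) came from a single cell, and 20 *Spp1*+*Cxcl9*- macrophages (2.96%) had 3 or more *Ctsk* UMIs. *Gzmb* (2.21) and *Gzma* (1.62), called as higher as well, rested on the few cells described above. *Inhba* UMIs were found in 65 of the 675 cells, and 3 cells held 29.6% of all 432. A single cell held all 3 in saline replicate 2, all 5 in free R848 replicate 1 and 29 of 33 in free R848 replicate 3.

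**Figure D4:**
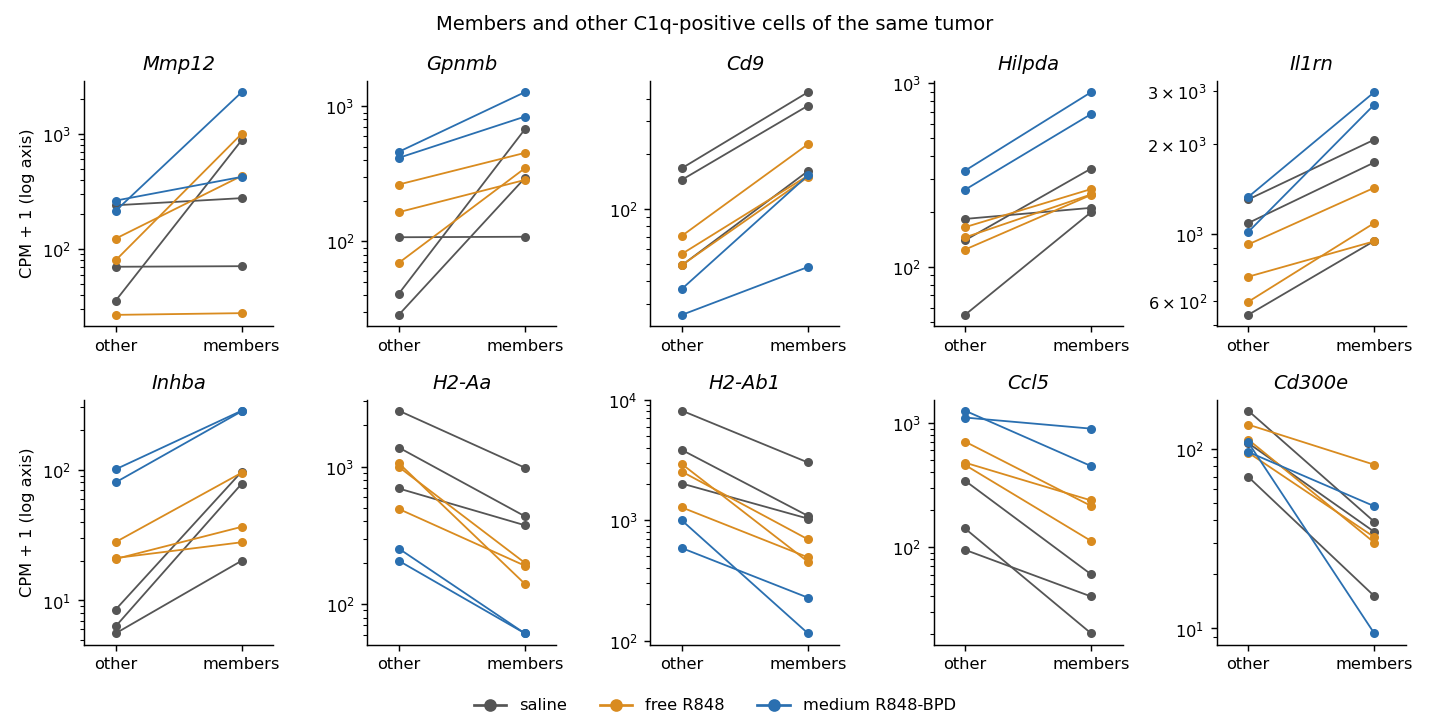
Each line joins the level of a gene in other C1q-positive cells and in *Spp1*+*Cxcl9*- macrophages (members) of 1 tumor, in CPM plus 1 on a log axis, colored by treatment. *Cd9*, *Hilpda*, *Il1rn* and *Inhba* were higher and *H2-Aa*, *H2-Ab1*, *Ccl5* and *Cd300e* lower in 8 of 8 tumors.

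Genes of antigen presentation by MHC class II were lower as a group. All 6 tested genes of the list were lower, with a median log2 fold change of -1.62. *H2-Ab1*, a β chain, was at 1086, 3016 and 1031 CPM after saline, 451, 491 and 693 after free R848, and 227 and 114 after medium R848-BPDs. The other C1q-positive cells had 3832, 8125 and 2016 CPM after saline, 2924, 1276 and 2532 after free R848, and 586 and 995 after medium R848-BPDs, so that the level was lower in 8 of 8 tumors (-1.71 ± 0.14 SE, edgeR adjusted p = 2.91e-09). *H2-Aa*, the matching α chain (-1.68 ± 0.14 SE, edgeR adjusted p = 3.21e-09), *H2-Eb1* (-1.94 ± 0.13 SE, edgeR adjusted p = 1.52e-10) and *Cd74*, the invariant chain (-1.57 ± 0.13 SE, edgeR adjusted p = 3.74e-09), were lower by similar amounts. The peptide loading genes *H2-DMa* (-0.47) and *H2-DMb1* (-0.95) were lower by less. A *H2-Ab1* UMI was found, after thinning, in a median over tumors of 25.9% of *Spp1*+*Cxcl9*- macrophages and 43.9% of the others. The 2 shares were nearly equal in medium R848-BPD replicate 1, at 25.4% and 25.8%.

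Since these genes moved together, the RefSeq promoter windows of *H2-Aa* and *H2-Eb1*, from 250 bases before to 50 bases after the start in GRCm38.p6, are shown with the CCAAT element that NF-Y binds, searched as CCAAT with a following C on both strands, in capitals. *H2-Aa* lies on the minus strand with its window at chr17:34287774-34288073, and *H2-Eb1* on the plus strand at chr17:34305617-34305916.
H2-Aa: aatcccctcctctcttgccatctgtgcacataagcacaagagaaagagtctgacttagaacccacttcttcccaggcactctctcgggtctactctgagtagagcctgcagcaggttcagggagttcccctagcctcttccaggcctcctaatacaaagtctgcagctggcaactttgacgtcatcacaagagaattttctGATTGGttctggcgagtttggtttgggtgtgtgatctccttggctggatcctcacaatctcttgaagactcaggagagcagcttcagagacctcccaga
H2-Eb1: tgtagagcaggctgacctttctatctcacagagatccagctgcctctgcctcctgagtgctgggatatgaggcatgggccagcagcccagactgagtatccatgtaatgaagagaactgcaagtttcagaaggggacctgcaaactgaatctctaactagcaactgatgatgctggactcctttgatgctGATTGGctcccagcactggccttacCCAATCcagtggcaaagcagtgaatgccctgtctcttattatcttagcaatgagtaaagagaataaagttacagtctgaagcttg
The letters GATTGG start at position -49 of *H2-Aa* and -60 of *H2-Eb1*, and CCAATC at -35 of *H2-Eb1*, relative to the start. One of these forms was found in 6 of 7 windows of the 6 list genes with a window, and in 5292 of 32851 (16.1%) windows of all genes. This is a description of letters and does not show that a factor binds there.

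For the higher genes, the window of *Mmp13*, on the plus strand at chr9:7272264-7272563, is shown with the AP-1 site TGACTCA, in capitals, which starts at -35. AP-1 is bound by dimers of FOS and JUN proteins.
Mmp13: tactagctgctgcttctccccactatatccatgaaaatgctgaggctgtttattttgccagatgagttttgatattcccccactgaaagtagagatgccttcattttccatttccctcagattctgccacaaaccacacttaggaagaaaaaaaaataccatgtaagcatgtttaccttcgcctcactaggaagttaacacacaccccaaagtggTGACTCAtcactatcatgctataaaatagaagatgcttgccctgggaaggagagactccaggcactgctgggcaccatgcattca
TGACTCA or its reverse complement TGAGTCA was found in 1709 of 32851 (5.20%) windows, in 3 of 15 windows of the matrix list and in 5 of 20 windows of 14 of the 15 genes with the largest positive change.

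Also lower in 8 of 8 tumors were *Tmem176b*, a cation channel gene of myeloid cells (-2.44 ± 0.21 SE, edgeR adjusted p = 7.01e-09), and *Cd300e*, an activating receptor of nonclassical monocytes (-1.87 ± 0.18 SE, edgeR adjusted p = 1.45e-07). *Tmem176b* was at 12.8 to 73.7 CPM against 60.1 to 600.2 CPM, and *Cd300e* at 8.39 to 80.6 CPM against 68.9 to 162 CPM. Further genes lower in all tumors were *Serpina3g* (-1.37), *Fam26f* (-1.29), *Pecam1* (-1.27), *Pou2f2* (-1.08), *Clec4a3* (-1.07) and *Spn* (-1.04), which encodes CD43.

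Of interferon response genes, 3 of 30 were higher and 8 lower, and after thinning, which set all cells to 1 depth, 0 were higher and 5 lower. The guanylate-binding protein genes *Gbp2* (-0.68), *Gbp3* (-0.46), *Gbp4* (-0.62), *Gbp5* (-0.83) and *Gbp7* (-0.38), *Iigp1* (-0.68), *Zbp1* (-0.29) and *Cxcl10* (-0.43), several of them induced by interferon-γ like *Cxcl9*, were lower. *Rsad2* (0.42), *Cmpk2* (0.49) and *Nos2* (0.67) were higher. The count of lower genes was smaller in each alternative run on this list, with 3 higher and 4 lower when the other cells were limited to those without *Cxcl9*, 3 and 4 without cells that had a granzyme or *Prf1* UMI, 3 and 5 with RLE size factors, and 3 and 3 without saline replicate 2. Without that tumor, the lipid-associated list had 14 higher genes of 19 and the MHC class II list 6 lower of 6, and after thinning they had 10 of 19 and 6 of 6.

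Of 13 macrophage genes, *Cd68* (0.33), *Cd14* (0.31) and *Lyz2* (0.68) were higher and *Aif1* (-0.55) and *Cx3cr1* (-0.59) lower, and after thinning 1 was higher and 4 were lower. Of 14 genes of toll-like receptor signaling, 0 were higher and 2, *Tlr1* (-0.83) and *Unc93b1* (-0.34), which escorts endosomal receptors, were lower. *Tlr7*, the receptor of R848 in mice, was at 64.9, 57.4 and 75.9 CPM after saline, 107, 80.8 and 82.4 after free R848, and 106 and 121 after medium R848-BPDs and differed by -0.19 ± 0.12 SE (edgeR adjusted p = 0.5). Of 17 lysosomal genes 5 were higher (2 of 16, with 1 lower, after thinning), among them *Ctsd* (0.56) and *Ctsl* (0.75), and 0 of 5 monocyte markers passed in either direction. *Mrc1*, the mannose receptor, was at 0.10 (edgeR adjusted p = 0.811). Among 11 checkpoint genes 1 was higher and 3 were lower, and among 6 complement genes other than C1q 2 were lower, *C3* (-0.50) and *C4b* (-1.08). Tested markers of dendritic cells (2 of 2), neutrophils (1 of 3) and endothelium (1 of 2) were lower, and of 3 osteoclast markers 2 were higher and 1 was lower.

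Compared with their mirror, C1q-positive cells with at least 3 *Cxcl9* UMIs and no *Spp1*, fewer genes could be tested. There were 233 such cells, and 4 tumors held at least 10 of them, saline replicate 2 with 157, free R848 replicates 1 and 3 with 42 and 11 and medium R848-BPD replicate 2 with 13. Of 3083 genes, 42 (1.36%) were higher in *Spp1*+*Cxcl9*- macrophages and 20 (0.649%) were lower. *Cxcl2* (2.43 ± 0.27 SE, edgeR adjusted p = 0.000942), *Thbs1* (1.88), *Clec4n* (1.78), *Fabp5* (1.67) and *Hilpda* (1.61) were among the former. *Serpina3g* (-2.54 ± 0.37 SE, edgeR adjusted p = 0.00328), *Gbp5* (-2.01), *Iigp1* (-1.18) and 5 of 6 tested MHC class II genes, with *H2-Aa* at -1.78, were among the latter. After thinning, 2 tumors kept at least 10 cells of both kinds. This comparison turned on single tumors, with 0 genes called by edgeR without free R848 replicate 1 (230 at an unadjusted p under 0.05), 12 without free R848 replicate 3, 34 without saline replicate 2 and 109 without medium R848-BPD replicate 2. With DESeq2 and all 4 tumors, 44 were called.

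Transcripts of these genes were counted in part of the *Spp1*+*Cxcl9*- macrophages, and a cell without a UMI at this depth may still express the gene. Among 658 cells thinned to 2000 UMIs, an *Mmp12* UMI was found in 20.7% (5.58% of other C1q-positive cells), a *Gpnmb* UMI in 21.9% (11.7%), a *Trem2* UMI in 43.8% (26.2%) and a *Hilpda* UMI in 33.3% (18.1%). *Mmp12* and *Gpnmb* were found together in 67 cells, which were 49.3% of cells with *Mmp12*, whereas *Gpnmb* was found in 14.8% of those without. *Mmp12* was also found in 11.6% of cells with *Ly6c2* and 25.3% of cells without. These are shares over cells of all tumors, and the tumors differ in both genes. Within tumors, the shares for *Mmp12*, *Gpnmb*, *Trem2* and *Hilpda* were higher in *Spp1*+*Cxcl9*- macrophages in 8 of 8.

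For the treatments, counts of *Spp1*+*Cxcl9*- macrophages were summed per tumor, from 22 to 193 cells, and 6840 genes were tested. Between medium R848-BPDs and free R848, 79 genes (1.15%) were higher and 32 (0.468%) lower. Between medium R848-BPDs and saline, 169 (2.47%) were higher and 114 (1.67%) lower. Between free R848 and saline, edgeR called 0 genes (0%), with 431 at an unadjusted p under 0.05, and DESeq2 called 10. Without saline replicate 2, this last comparison gave 20 calls, 5 higher and 15 lower. Both comparisons with medium R848-BPDs share its 2 tumors, and without its replicate 1 they gave 32 and 107 calls. After thinning every cell to 2000 UMIs they gave 20 and 86. Of the genes named below as changed against free R848, *Saa3*, *Lcn2*, *Cd38*, *Procr*, *Slpi*, *Nos2* and *Cd74* passed after thinning, *Hp* was then not tested, and the others had the same direction but did not pass.

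After medium R848-BPDs, most acute phase genes and genes of prodrug-treated macrophages were raised, a list partly chosen by the study on these samples and so no independent evidence of direction. Of 9 tested genes, 7 were higher than after free R848 and 8 higher than after saline. *Saa3*, which encodes serum amyloid A3, on chromosome 7 from 46711998 to 46719615, was at 0, 63.8 and 0 CPM after saline, 48.3, 156 and 134 after free R848, and 10304 and 5109 after medium R848-BPDs. All tumors given medium R848-BPDs lay above all others, with a log2 fold change over free R848 of 5.99 ± 0.65 SE (edgeR adjusted p = 5.24e-05). Its 7114 UMIs came from 99 cells.

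*Lcn2*, lipocalin 2, which binds iron-carrying siderophores, was at 0, 0 and 0 CPM after saline, 5.37, 8.62 and 2.84 after free R848, and 386 and 181 after medium R848-BPDs. It was raised over free R848 (5.45 ± 0.43 SE, edgeR adjusted p = 1.09e-05), and over saline, where 0 UMIs were counted, it was at least 179.5-fold higher, taking 3 UMIs over the group as the floor. *Cd38*, an enzyme that consumes NAD, was at 3.54, 38.3 and 11.2 CPM after saline, 21.5, 24.8 and 11.4 after free R848, and 295 and 302 after medium R848-BPDs. The 2 tumors given medium R848-BPDs were nearly equal and far above the other 6 (3.84 ± 0.40 SE over free R848, edgeR adjusted p = 4.4e-05). *Procr* (3.83), the protein C receptor, *Slpi* (3.20), a protease inhibitor, *Hp* (2.96), haptoglobin, and *Fpr1* (3.27), a formyl peptide receptor, rose over free R848 as well.

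*Nos2*, the inducible nitric oxide synthase, was at 7.08, 25.5 and 61.4 CPM after saline, 5.37, 20.5 and 105 after free R848, and 483 and 664 after medium R848-BPDs and rose over free R848 by 3.70 ± 0.60 SE (edgeR adjusted p = 0.00348) on the log2 scale. *Mmp8*, a neutrophil collagenase (3.08 ± 0.44 SE, edgeR adjusted p = 0.00113), and *Ccl5* (1.82 ± 0.35 SE, edgeR adjusted p = 0.0109) rose too, neither passing after thinning (0.94 and 1.72), the latter from 38.9, 19.1 and 59.2 CPM after saline, 236, 213 and 111 after free R848, and 448 and 898 after medium R848-BPDs. *Lyve1*, a hyaluronan receptor of resident macrophages, was called against free R848, where 0 UMIs were counted, and was at least 38.5-fold higher. However, its 145 UMIs came from 8 cells, and saline replicate 3, at 90.5 CPM, lay between both medium R848-BPD tumors, which had 90.6 and 67 CPM.

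**Figure D5:**
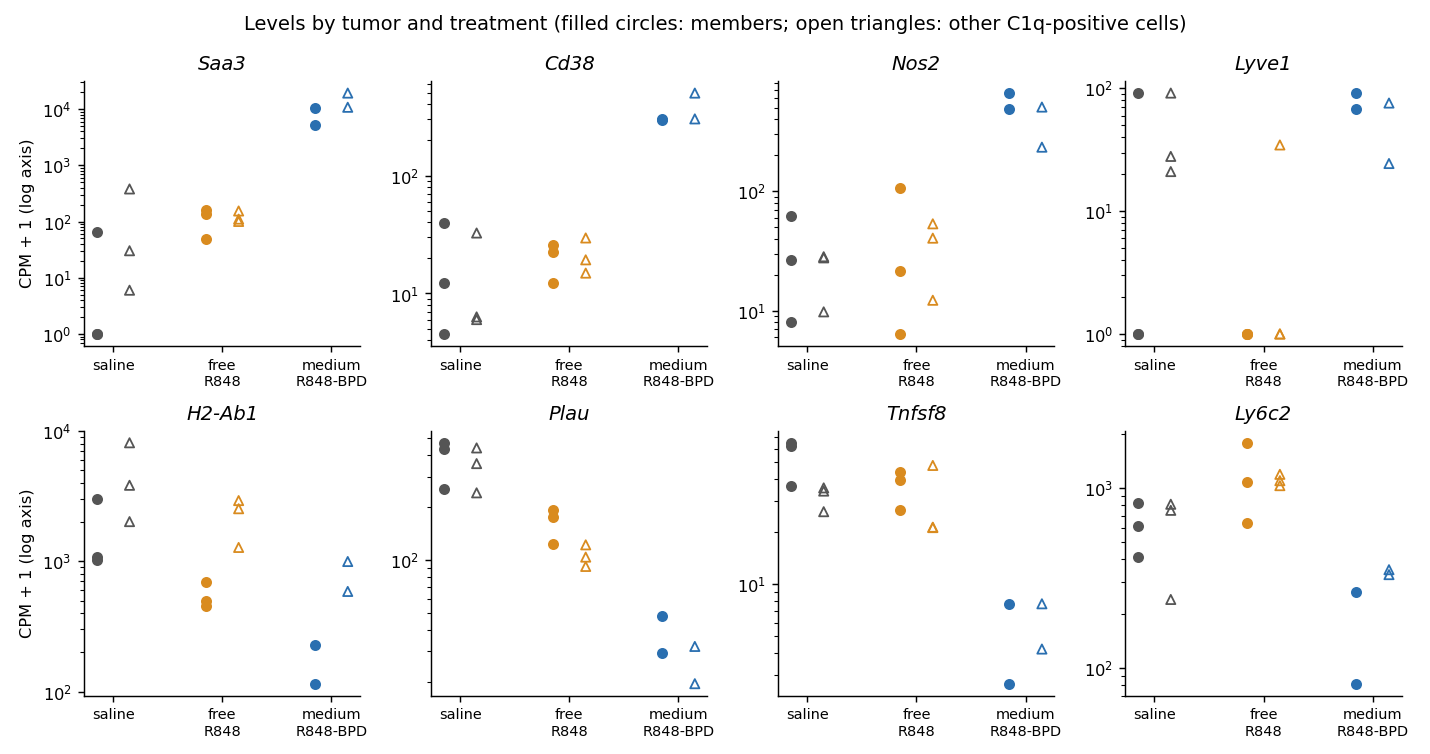
Levels of 8 genes by treatment (x axis), in CPM plus 1 on a log axis, with 1 filled circle per tumor for *Spp1*+*Cxcl9*- macrophages (members) and 1 open triangle per tumor for other C1q-positive cells. *Saa3*, *Cd38* and *Nos2* were higher and *Plau*, *Tnfsf8* and *Ly6c2* lower in both medium R848-BPD tumors than in all others, in *Spp1*+*Cxcl9*- macrophages.

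*Spp1* itself, which the selection used, was at 1638 to 1716 CPM after medium R848-BPDs, within the range of the other tumors. *Hilpda* rose after medium R848-BPDs (1.62 ± 0.27 SE over free R848, edgeR adjusted p = 0.00348), as did *Il1rn* (1.30 ± 0.28 SE, edgeR adjusted p = 0.0222). *Gpnmb* (1.58 ± 0.47 SE, edgeR adjusted p = 0.112) and *Mmp12* (1.48 ± 0.81 SE, edgeR adjusted p = 0.55) did not pass. *Cd9* fell against saline (-1.55 ± 0.40 SE, edgeR adjusted p = 0.0356). *Hilpda* and *Il1rn* did not pass against free R848 after thinning (1.52 and 1.16, edgeR adjusted p = 0.0979 and 0.205). *Il1rn* also missed the threshold against free R848 without cells that had a granzyme or *Prf1* UMI (1.08, edgeR adjusted p = 0.117), and *Cd9* missed it against saline after thinning (-1.65, edgeR adjusted p = 0.171). Of 20 lipid-associated genes, 1 was higher than after free R848 (median log2 fold change 0.37, against 0.00433 over all genes) and 3 were higher and 1 lower than after saline (median 0.26, against -0.00198 over all genes). The latter comparison changed to 3 higher and 3 lower without saline replicate 2, with a median of 0.03, and to 1 and 0 of 19 after thinning, with a median of 0.12. Against free R848, 0 passed after thinning or without cells that had a granzyme or *Prf1* UMI. Of 27 hypoxia and glycolysis genes, 1 was higher than after free R848, with 26 positive and a median of 0.61, and 2 were higher than after saline, with 24 positive and a median of 0.53.

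MHC class II genes fell after medium R848-BPDs in both kinds of cell. In *Spp1*+*Cxcl9*- macrophages, all 6 tested genes were lower than after saline, with a median log2 fold change of -3.23, and 2 were lower than after free R848. The latter count was 5 without saline replicate 2 and 1 without the cells that had a granzyme or *Prf1* UMI. In other C1q-positive cells, 8 of 8 tested genes were lower than after saline (median -2.53) and 3 were lower than after free R848, and the edgeR test of a different response between the kinds of cell passed for 0 of 8 in either comparison (1, *Cd74*, at an unadjusted p under 0.05 in both, and 0 by DESeq2). *H2-Eb1* was at 489, 1103 and 495 CPM after saline, 188, 201 and 256 after free R848, and 57 and 80.4 after medium R848-BPDs, with no overlap between any of the 3 treatments. It changed by -3.38 ± 0.41 SE against saline (edgeR adjusted p = 0.000102) and -1.74 ± 0.41 SE against free R848 (edgeR adjusted p = 0.038). *Cd74* changed by -3.71 ± 0.44 SE (edgeR adjusted p = 8.98e-05) and -2.39 ± 0.44 SE (edgeR adjusted p = 0.00845). Against free R848, *H2-Ab1* changed by -1.59 ± 0.44 SE and did not pass (edgeR adjusted p = 0.0871).

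Some genes of recruited monocytes were lower as well. *Ly6c2* was at 822, 415 and 615 CPM after saline, 1783, 641 and 1077 after free R848, and 263 and 80.4 after medium R848-BPDs and fell against free R848 (-2.60 ± 0.46 SE, edgeR adjusted p = 0.00632). *Ccr2*, the receptor that draws monocytes out of the bone marrow (-1.80 ± 0.44 SE, edgeR adjusted p = 0.0455), and *Plac8* (-2.12 ± 0.38 SE, edgeR adjusted p = 0.00772) fell too, and these were 3 of 6 tested monocyte markers. Against saline, 2 of the 6 were lower and 1 was higher, and after thinning 0 of 5 passed against free R848. *S100a4* was at 506, 134 and 611 CPM after saline, 414, 335 and 259 after free R848, and 31.9 and 26.8 after medium R848-BPDs (-3.44 ± 0.54 SE, edgeR adjusted p = 0.00276). *Plau*, urokinase, was at 468, 255 and 431 CPM after saline, 193, 176 and 122 after free R848, and 28.5 and 46.9 after medium R848-BPDs (-2.27 ± 0.40 SE, edgeR adjusted p = 0.00604). *Tnfsf8*, CD30 ligand (-3.59 ± 0.73 SE, edgeR adjusted p = 0.0166), *Gdf3*, a growth factor of the TGF-β family (-3.28 ± 0.61 SE, edgeR adjusted p = 0.00902), and *Sorl1*, a sorting receptor (-2.00 ± 0.47 SE, edgeR adjusted p = 0.0401), were the other genes with the largest falls. Of 17 genes of the matrix list, *Plau* was the 1 lower and *Mmp8* the 1 higher than after free R848 (0 and 0 after thinning, and *Plau* missed the threshold without cells that had a granzyme or *Prf1* UMI). Against saline, 4 were higher and 2 lower (1 and 2 after thinning). Against saline, *Fn1* (-3.28), *Csf1r* (-1.45), *Il1b* (-1.39) and *Tnf* (-1.57) also fell, of which *Il1b* and *Tnf* did not pass after thinning.

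Of 30 interferon response genes, 10 were higher and 1, *Cxcl10* (-1.12), lower after medium R848-BPDs than after saline, and 3 were higher than after free R848. After thinning, 2 and 1 of 29 were higher and 0 were lower, and *Cxcl10* did not pass without cells that had a granzyme or *Prf1* UMI either. *Rsad2*, viperin, was at 729.9, 657 and 763 CPM after saline, 859, 1009 and 1074 after free R848, and 1842 and 2883 after medium R848-BPDs (1.26 ± 0.23 SE over free R848, edgeR adjusted p = 0.00845). *Cd274*, which encodes PD-L1, was at 127, 185 and 178 CPM after saline, 247, 124 and 224 after free R848, and 416 and 456 after medium R848-BPDs (1.19 ± 0.29 SE, edgeR adjusted p = 0.0467), and it missed the threshold with RLE size factors, without cells that had a granzyme or *Prf1* UMI and after thinning (edgeR adjusted p = 0.0578, 0.0691 and 0.463). *Ifit1* (1.39), *Isg15* (1.23) and *Oasl1* (1.43) passed against saline only. In this fit, the changes against saline and against free R848 differ by the change between free R848 and saline. For that change, 0 of the 30 genes passed, with 28 positive and a median log2 fold change of 0.53.

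Granzyme genes, of NK and T cells, were also called as higher than after saline, and they rested on few cells. *Gzmb* (5.52), *Prf1* (4.84) and *Gzma* (4.75) were 3 of 4 tested NK cell markers. In medium R848-BPD replicate 2, 1 of 23 cells held 229 of 230 *Gzmb* UMIs, and in replicate 1, 3 of 67 cells held 96.8% of 156. Without the cells that had a granzyme or *Prf1* UMI, 235 genes were called between medium R848-BPDs and saline and 82 between medium R848-BPDs and free R848, of which 196 and 68 were among the 283 and 111.

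Other C1q-positive cells responded to medium R848-BPDs in many of these genes too. *Saa3* rose by 6.97 over free R848, *Cd38* by 4.28 and *Nos2* by 3.44 on the log2 scale, and *S100a4* (-3.14) and *Plau* (-2.12) fell. For 2 of the genes, *Gdf3* (-1.23) and *Sorl1* (-0.22), other C1q-positive cells did not pass (edgeR adjusted p = 0.157 and 0.693), but the difference between the kinds of cell did not pass either (edgeR adjusted p = 0.975 and 0.339). Tested across 8722 genes with the tumor as a block, the response of *Spp1*+*Cxcl9*- macrophages differed from that of other C1q-positive cells in 0 genes (0%) for medium R848-BPDs against free R848 (328 at an unadjusted p under 0.05, 0 by DESeq2), in 1 (0.0115%) for free R848 against saline and in 3 (0.0344%) for medium R848-BPDs against saline. These were *Gzma* in both and *Gzmd* and *Gzmf* in the latter, and 0 were called by edgeR without cells that had a granzyme or *Prf1* UMI (217 and 459 genes at an unadjusted p under 0.05) and 0 by DESeq2.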

How the data were processed

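Seq-Well libraries of 8 MC38 tumors, 1 per mouse, were analysed. For every tumor the authors deposited a table of raw UMI counts (genes by barcodes), not normalized. The submitters' processing notes name bcl2fastq and mm10. The aligner and the annotation are not given in the sources used here. Genes are given by symbol. Positions and promoters come from RefSeq on GRCm38.p6.

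Of 10791 barcodes, 9886 passed the limits on cells, which were over 400 and under 10000 genes, under 50000 UMIs and no more than 15% of UMIs from mitochondrial genes. The members and the gene lists were chosen with earlier results of these data known. Counts were summed per tumor and kind of cell, for tumors with at least 10 cells of each kind, and tested with edgeR 4.0.16 in R 4.3.3 (TMM normalization, filterByExpr with a minimum count of 10, quasi-likelihood F test, Benjamini-Hochberg adjustment, 0.05). Genes of the selection stayed in library sizes and were not tested. Log2 fold changes are given with standard errors calculated from the change and its quasi-likelihood F statistic. Kinds of cell were compared with the tumor as a block, treatments without a block, with all 3 treatments in 1 fit. Mice, not cells, were the replicates, at most 3 per treatment, which limits what could be detected.

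Named genes were those of the lists, the 15 with the largest change in each direction between kinds of cell (called, average log2 CPM 5 or more, 1 direction in every tumor used), the 8 in each direction by treatment (called, the same minimum, groups without overlap) and the 8 with the smallest p for a different response. *Gzmf*, the single-cell values and the pairs of genes found together were chosen after their values were seen. Shares were compared with exact permutation tests. Shares have exact (Clopper-Pearson) 95% intervals. The edgeR tests were also run on simulated counts with 1 fixed spread for every gene and no differences between tumors of a group. That setting is simpler than these data, so it does not show how the tests behave on them. T cells held 3 or more Cd3 UMIs, MC38 cells 5 or more of *Mtap* and *Rhox5*, and NK cells 3 or more of NK cell genes, fewer than 5 of C1q and none of Cd3. Doublets marked by Scrublet (expected rate 0.05) were kept.

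Alternatives were other *Spp1* and C1q minimums (2 or 6, and 10 UMIs), cells thinned to 2000 UMIs, the same number of cells, RLE size factors, DESeq2 1.42.0, no filter on low counts, no doublets (scanpy 1.11.5 in Python 3.11.15), other denominators, only the 2 groups compared, a replicate block or none, and each tumor left out. Chosen after seeing the data were the removal of cells with 3 or more *Ctsk* UMIs, with a granzyme or *Prf1* UMI, with a *Mtap* or *Rhox5* UMI or with a shared barcode, and other cells limited to those without *Cxcl9*. Some genes are not reported here.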

Additional observations from a re-analysis of the deposited data

Results flagged for a closer look

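Genes whose response to treatment differed between *Spp1*+*Cxcl9*- macrophages and other C1q-positive cells by the kind-of-cell by treatment term of edgeR were 3 granzyme genes. The difference in log2 change was 3.70 ± 0.66 (SE, edgeR adjusted p = 0.0405) for *Gzma* between free R848 and saline, where the change was 1.96 in *Spp1*+*Cxcl9*- macrophages and -2.41 in the others. Between medium R848-BPDs and saline it was 3.66 ± 0.56 (SE, edgeR adjusted p = 0.0032) for *Gzma*, with changes of 4.75 and 0.23, and 6.68 ± 1.07 (SE, edgeR adjusted p = 0.00403) for *Gzmd*, with changes of 5.50 and -0.93. For *Gzmf*, which was not tested in the other cells alone, it was 7.62 ± 1.40 (SE, edgeR adjusted p = 0.0221). The changes within each kind of cell come from separate fits, so they do not subtract to the difference, which was fitted over both kinds with the tumor as a block. Each was marked because the test of the difference between the kinds of cell passed. Few cells held these transcripts. In free R848 replicate 2, 47 of 61 *Gzma* UMIs came from 1 cell, and without that tumor the difference for *Gzma* between free R848 and saline was 2.09 (edgeR adjusted p = 1.0). In medium R848-BPD replicate 1, 111 of 126 *Gzma* UMIs came from 1 cell, and in replicate 2 all 56 came from 1 cell. No *Gzmd* or *Gzmf* UMI was counted in *Spp1*+*Cxcl9*- macrophages of medium R848-BPD replicate 2. Without medium R848-BPD replicate 1, the remaining medium R848-BPD tumor had 0 *Gzmd* UMIs in these cells, and no difference could be estimated. Without saline replicate 1 none of these differences for *Gzma* and *Gzmd* was called (3.71 and 3.69 for *Gzma*, 5.24 for *Gzmd*, edgeR adjusted p = 0.465, 0.276 and 0.661), and without saline replicate 2 both for *Gzma* were lost (3.35 and 3.29, edgeR adjusted p = 0.372 and 0.147). The part of NK cell transcripts in these values was not tested.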

How the results depend on the processing

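Differences in share kept their direction in all alternatives. When single tumors were left out, they ran from -13.2 to -3.05 points between medium R848-BPDs and free R848. They ran from -39.3 to -8.95 between free R848 and saline, and from -47.0 to -16.7 between medium R848-BPDs and saline. The shares themselves were smaller in every tumor after thinning. Medium R848-BPD replicate 1 then had 31 *Spp1*+*Cxcl9*- macrophages and 416 other C1q-positive cells, against 67 and 360. Saline replicate 3 had 163 and 129, against 193 and 103.

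Between *Spp1*+*Cxcl9*- and other C1q-positive cells, 425 genes were called, 280 after thinning, 25 with the same number of cells and 2 without the tumor term, and 248 to 489 when single tumors were left out, the fewest without medium R848-BPD replicate 1. Against *Cxcl9*-positive *Spp1*-negative cells, 62 became 113 after thinning, 5 at a minimum of 6 *Spp1* UMIs, 175 without a filter on low counts, 2 without the tumor term and 0 to 109 without single tumors (0 without free R848 replicate 1, 12 without free R848 replicate 3, 34 without saline replicate 2, 109 without medium R848-BPD replicate 2). Between medium R848-BPDs and free R848, 111 became 20 after thinning, 72 at 6 *Spp1* UMIs, 72 with the same number of cells, 275 without the filter and 32 to 131 without single tumors. Without free R848 replicate 2 or 3 there were 61, and without medium R848-BPD replicate 1 or 2 there were 32 and 57. Between medium R848-BPDs and saline, 283 became 86 after thinning, 182 at 6 *Spp1* UMIs, 104 with the same number of cells, 187 with DESeq2, 481 without the filter and 107 to 317 without single tumors, where leaving out either medium R848-BPD tumor gave 107 and 155, and leaving out saline replicate 1 gave 127. Between free R848 and saline, 0 became 1 after thinning, at 6 *Spp1* UMIs or without granzyme-positive cells, 10 with DESeq2, 89 without the filter, 2 with only these groups in the fit and 0 to 20 without single tumors (20 without saline replicate 2, 5 without saline replicate 3). The correlation of deviations of same-numbered tumors from their group means ran from -0.0765 to 0.104 and was over 0.1 in 1 of 7 pairs. Deviations in groups this small depend on each other, so these correlations cannot decide whether replicate numbers pair the tumors. With the replicate number as a block (replicate block), the treatment comparisons gave 155, 0 and 305 calls for medium R848-BPDs against free R848, free R848 against saline and medium R848-BPDs against saline.

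The count of different responses for medium R848-BPDs against free R848, 0, became 2 after thinning, 1 at a minimum of 2 *Spp1* UMIs, 3 without *Mtap*- or *Rhox5*-positive cells, 20 without the filter and 0 to 8 without single tumors (8 without free R848 replicate 2). For free R848 against saline, 1 became 2 after thinning, 6 at 6 *Spp1* UMIs, 15 without the filter, 1 to 6 without single tumors (6 without free R848 replicate 1), and 0 at 2 *Spp1* UMIs, at 10 C1q UMIs, with the same number of cells, without *Ctsk*- or granzyme-positive cells and with DESeq2. For medium R848-BPDs against saline, 3 became 5 at 6 *Spp1* UMIs, 1 at 10 C1q UMIs, 8 without doublets, 1 without *Mtap*- or *Rhox5*-positive cells, 23 without the filter, 1 to 11 without single tumors (11 without free R848 replicate 2, 1 without saline replicate 1), and 0 with the same number of cells, without granzyme-positive cells and with DESeq2.

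Of genes named by the size of their change or by p, 1816 values kept their direction and call over all alternatives. Another 264 kept the direction only, 55 of these without the tumor term, and 3 reversed. Genes named only as members of a list were not counted here. The difference in the *Gzma* response was -1.46 after thinning and -0.39 at 2 *Spp1* UMIs for free R848 against saline, and -0.75 at 2 *Spp1* UMIs for medium R848-BPDs against saline. The cause of these changes was not tested.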
